A study of Mus musculus with 12 samples.

Results

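The Ikaros family is a small group of zinc finger transcription factors of lymphocytes, and its 5 mouse genes were followed here in CD8+ T cells taken from tumors. The members were chosen by name, as Ikzf1 (Ikaros), Ikzf2 (Helios), Ikzf3 (Aiolos), Ikzf4 (Eos) and Ikzf5 (Pegasus), 5 of the 52636 gene identifiers in the count table. The family came into view because Ikzf2 stood among the higher genes of GFP+ cells in non-treated tumors. That comparison is therefore selected on its own values and is described here without a test for any of the 5 genes.

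In the Ikaros family a block of zinc fingers near the start of the protein contacts DNA, and a pair of fingers at its end lets members bind each other as homodimers or heterodimers. The proteins recruit chromatin remodelling and deacetylase complexes such as NuRD and can repress or maintain their target genes. Ikaros is needed for lymphocyte development, and Aiolos is its close relative in mature lymphocytes. Helios is known from regulatory T cells and from a Ly49-bearing regulatory subset of CD8+ T cells, and Eos is known as a partner of Foxp3 in regulatory T cells. Pegasus is the most divergent member and binds a different DNA motif.

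The cells came from A2AR eGFP reporter mice on a C57BL/6 background, which carry a bacterial artificial chromosome transgene, Tg(Adora2a-EGFP), in which GFP is driven by the regulatory sequences of Adora2a, the gene of an adenosine receptor that restrains T cells. Adult female mice received 500000 AT3ova cells, a mouse breast tumor line that expresses chicken ovalbumin, under the skin, and CD8+ tumor-infiltrating T cells were sorted on day 21 into GFP+ and GFP− fractions. Mice were either non-treated or received anti-PD-L1, an antibody that blocks the ligand of the checkpoint receptor PD-1, on days 14 and 18. Each of the 4 conditions (NonTreated_GFPneg, NonTreated_GFPpos, aPDL1_GFPneg and aPDL1_GFPpos) had 3 libraries, and each library pooled cells of several mice, so the p-values measure the spread between pools. Whether a GFP+ and a GFP− library came from the same mice is not stated, so the fractions may be paired and were fitted as unpaired. All 4 conditions carry the transgene, GFP reports the activity of the transgene rather than receptor protein, and AT3ova is a single transplanted line.

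The libraries held between 11292699 and 19023900 counts of 3′ mRNA tags. The libraries KT13 (NonTreated_GFPpos) and KT21 (aPDL1_GFPpos) stood apart, with median Spearman correlations to the other libraries of 0.941 and 0.935 against 0.967 to 0.977 for the other 10, so the fitted differences of the 5 members that involve them are also given without both. Adora2a, the gene that the reporter follows, reached 22.2 ± 2.31 CPM (TMM-normalized CPM, counts scaled to library size, mean ± SD, n = 3) in GFP− and 63.5 ± 3.58 CPM in GFP+ cells of non-treated tumors, and 30.7 ± 4.38 and 88.9 ± 22.5 CPM after anti-PD-L1. Cd8a, a chain of the CD8 coreceptor, was lower in GFP+ than in GFP− libraries of non-treated tumors, at 799 to 860 against 1090 to 1190 CPM, and overlapped after anti-PD-L1, at 1150 to 1340 against 1280 to 1360 CPM. The 7 genes of the CD8 T cell list summed to 3870 to 4230 CPM in GFP+ and 4540 to 4640 CPM in GFP− libraries of non-treated tumors, and to 4630 to 6020 and 5120 to 5360 CPM after anti-PD-L1, and the part of this in the Ikzf2 and Ikzf4 differences was not tested. Cd4 was at 0 to 0.919 CPM. In such bulk samples, fewer cells of a type and less RNA per cell cannot be told apart.

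Members of the family encode alike zinc fingers, which matters for counting reads that could fit several of them. The coding sequence of the second finger is shown 5′ to 3′ for this reason, read from the GENCODE vM21 transcripts of GRCm38 (the build also called mm10). Capitals mark the codons of the 2 cysteines and 2 histidines that hold the zinc ion.
Ikzf1: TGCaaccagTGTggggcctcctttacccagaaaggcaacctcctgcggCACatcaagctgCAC
Ikzf2: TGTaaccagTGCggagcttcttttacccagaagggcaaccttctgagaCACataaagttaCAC
Ikzf3: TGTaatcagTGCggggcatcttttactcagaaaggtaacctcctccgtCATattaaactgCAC
Ikzf4: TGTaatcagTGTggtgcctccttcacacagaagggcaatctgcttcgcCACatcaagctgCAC
Ikzf5: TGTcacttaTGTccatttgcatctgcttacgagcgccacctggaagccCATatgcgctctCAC

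Over these 63 bases Ikzf1, Ikzf2, Ikzf3 and Ikzf4 encode the same 21 of 21 residues, while 48 to 53 bases are identical in each pair. Ikzf5 shares 5 of the 21 residues and 26 to 30 bases with each of the others. The shared residues include the cysteines and histidines by which the fingers were found. Fingers were matched by their order, so the second finger of Ikzf5 need not be the counterpart of the others. Across 1 whole protein-coding transcript per gene the longest identical run between any pair of members was 26 bases, between Ikzf1 and Ikzf3, and no window of 75 bases, the read length, was shared by any of their annotated transcripts. The reads come mostly from the 3′ ends of transcripts, so they rarely cover the finger itself, and CPM values are compared between conditions and not between genes.

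Ikzf1 lies at chr11:11685003-11772926 on the plus strand, Ikzf2 at chr1:69531214-69687245, Ikzf3 at chr11:98464902-98546031, Ikzf4 at chr10:128630843-128645991 and Ikzf5 at chr7:131388652-131410521, the last 4 on the minus strand (GRCm38, GENCODE vM21). The 3′ end of Ikzf5 overlaps Pstk, a gene on the opposite strand that had 1932 counts over the 12 libraries against 5029 for Ikzf5. The strand setting of the counting was not stated, so Ikzf5 values may share reads with Pstk. The antisense gene Gm29114 at the 3′ end of Ikzf2 had 0 counts, and each of the other overlapping genes had at most 20. All 5 members passed the filter on low counts, with 311 to 3820 counts per library.

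Ikzf2 was the member that differed most with the reporter. In non-treated tumors the GFP− libraries KT14, KT16 and KT18 held 72.8, 81.6 and 73.5 CPM of Ikzf2, and the GFP+ libraries KT13, KT15 and KT17 held 172.5, 126 and 153.8 CPM. The lowest GFP+ library was above the highest GFP− library, and the group means were 75.9 ± 4.87 and 151 ± 23.4 CPM. The fitted log2 fold change was 0.99 (SE 0.17), and 0.88 (SE 0.14) without KT13 and KT21. These are the values that chose the family and carry no test.

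The same gene was then tested in the anti-PD-L1 libraries, whose values are not those that brought the family into view, although earlier results of all libraries were known when the genes were chosen. The GFP− libraries KT20, KT22 and KT24 held 65.5, 65.7 and 50.1 CPM of Ikzf2, and the GFP+ libraries KT19, KT21 and KT23 held 116.6, 131.3 and 106.1 CPM. All 3 GFP+ libraries again lay above all 3 GFP− libraries, at 118 ± 12.7 against 60.4 ± 8.97 CPM. This was a 1.95-fold difference, or 0.97 on the log2 scale (SE 0.17), with an unadjusted p of 5.04e-05 that ranked 8 among the 14173 genes tested (edgeR quasi-likelihood test).

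After Benjamini-Hochberg adjustment this difference missed the threshold of 0.05 with all 12 libraries, at an adjusted p of 0.0893 in edgeR. Without KT13 and KT21 the log2 fold change was 0.88 (SE 0.14) and the adjusted p was 0.00427 in edgeR. DESeq2 on all 12 libraries gave 0.98 with an adjusted p of 0.00016. Leaving out 1 library at a time moved the log2 fold change between 0.86 and 1.06 and the unadjusted p between 2.8e-05 and 0.000539, and the adjusted p lay between 0.0522 and 0.737, highest without KT24 (edgeR). The direction and size of the Ikzf2 difference thus varied little, whereas its call depended on the libraries and tool.

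**Figure D1:**
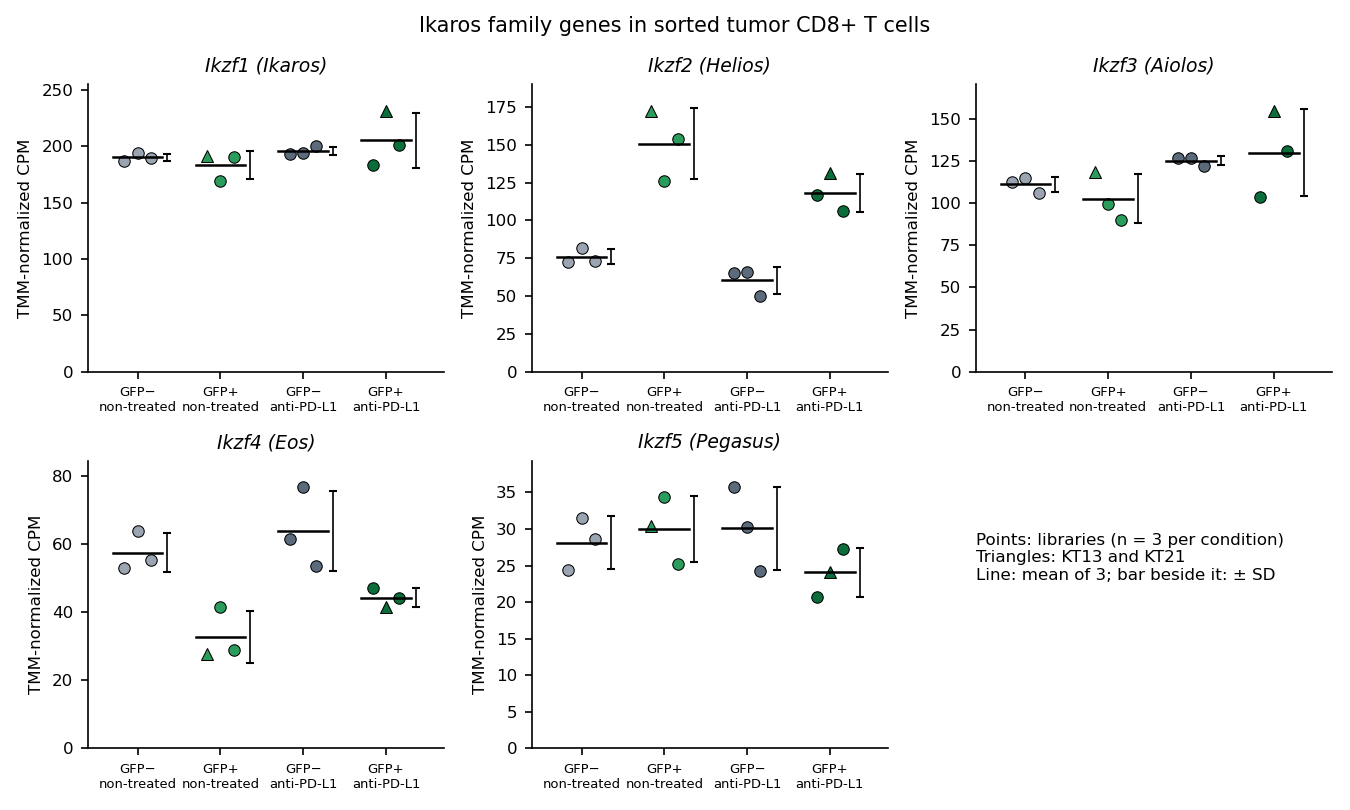
TMM-normalized CPM of the 5 Ikaros family genes in each of the 12 libraries, by condition (points are libraries, triangles are KT13 and KT21, lines are means of 3 and the bars beside them ± SD). For Ikzf2 the GFP+ libraries sit above all GFP− libraries of the same treatment, for Ikzf4 below them, and the groups of Ikzf1, Ikzf3 and Ikzf5 overlap.

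Ikzf4 had the opposite pattern. In non-treated tumors the GFP− libraries KT14, KT16 and KT18 held 53.0, 63.9 and 55.4 CPM, and the GFP+ libraries KT13, KT15 and KT17 held 27.7, 41.5 and 28.8 CPM. Every GFP+ library was below every GFP− library, with means of 57.4 ± 5.71 and 32.6 ± 7.67 CPM and a log2 fold change of −0.81 (SE 0.19), or −0.71 (SE 0.18) without KT13 and KT21, given without a test.

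After anti-PD-L1, Ikzf4 was at 61.5, 76.7 and 53.5 CPM in the GFP− libraries KT20, KT22 and KT24 and at 47.0, 41.6 and 44.3 CPM in the GFP+ libraries KT19, KT21 and KT23. The groups did not overlap here either, at 63.9 ± 11.8 against 44.3 ± 2.7 CPM. The log2 fold change was −0.53 (SE 0.19), with an unadjusted p of 0.0142 and an adjusted p of 0.993 in edgeR, so the difference did not pass the test. Without KT13 and KT21 it was −0.49 (SE 0.18), with an adjusted p of 0.671.

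The groups of the other 3 members overlapped in both treatments with all 12 libraries. The share of all genes tested whose groups separate, as those of Ikzf2 and Ikzf4 did, is not given. Separation of groups is therefore a description only, here and in the treatment comparisons. Ikzf1 lay between 169 and 232 CPM over all 12 libraries, Ikzf3 between 90.2 and 155 CPM and Ikzf5 between 20.7 and 35.7 CPM. After anti-PD-L1 the GFP+ minus GFP− log2 differences were 0.07 (SE 0.14) for Ikzf1, 0.05 (SE 0.17) for Ikzf3 and −0.32 (SE 0.20) for Ikzf5, each with an adjusted p of 0.993 in edgeR. The highest Ikzf1 value, 231.7 CPM, and the highest Ikzf3 value, 154.8 CPM, were both in KT21, and without KT13 and KT21 the 2 differences changed sign, to −0.029 and −0.094. In non-treated tumors the differences were −0.05, −0.11 and 0.09 for Ikzf1, Ikzf3 and Ikzf5, with SEs of 0.14, 0.17 and 0.20. When KT13 and KT21 were left out they were −0.08, −0.23 and 0.08, with SEs of 0.11, 0.13 and 0.20. For Ikzf3 the remaining non-treated GFP+ libraries, at 99.3 and 90.2 CPM, then lay below the 3 GFP− libraries, at 105.9 to 114.8 CPM.

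Of the 5 members, 0 were called between GFP+ and GFP− cells after anti-PD-L1 with all 12 libraries in edgeR at an adjusted p under 0.05, where 0.0282% of all genes tested were called, 4 of 14173. At an unadjusted p under 0.05 there were 2 members, Ikzf2 and Ikzf4, beside 578 of the 14173 genes, and DESeq2 called 1, Ikzf2, beside 38 genes in all. Without KT13 and KT21 edgeR called 1 of 5, Ikzf2, where 0.17% of all genes were called, 25 of 14747.

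**Figure D2:**
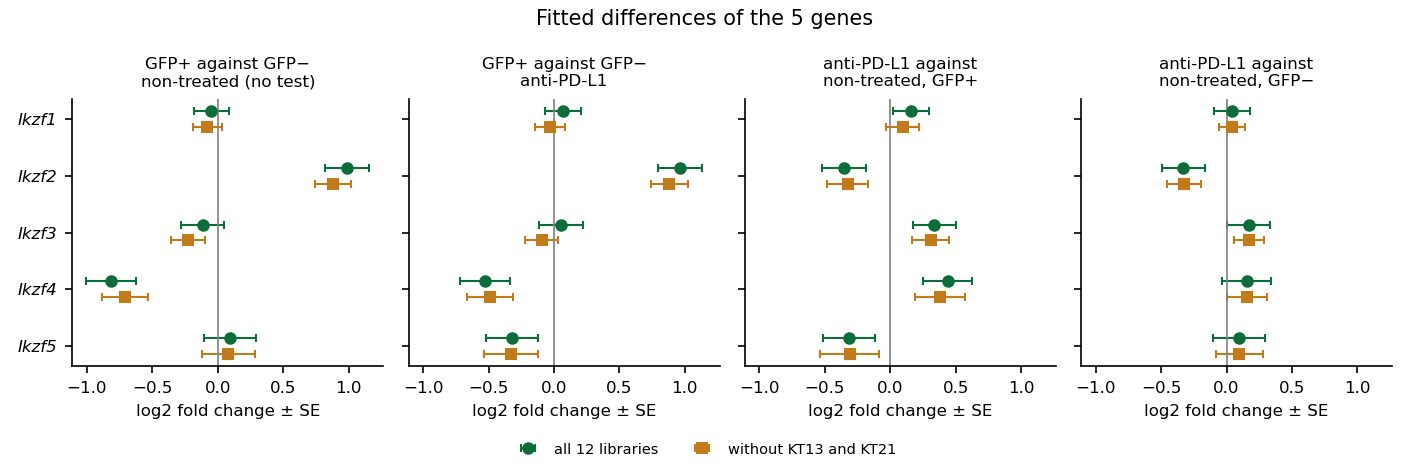
Fitted log2 fold change ± SE of each member in the 4 comparisons, with all 12 libraries (circles) and without KT13 and KT21 (squares). Ikzf2 sits near 1 and Ikzf4 below 0 in both reporter comparisons, and the values for the treatment comparisons lie within 0.44 of 0 with all 12 libraries.

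The next question was whether anti-PD-L1 moved the family within each fraction. These comparisons share the non-treated libraries with the comparison that chose Ikzf2, which tilts Ikzf2 towards lower values after treatment in GFP+ and higher ones in GFP− cells, so its values here are a description with no p. In GFP+ cells Ikzf2 was lower after anti-PD-L1 in the mean, at 118 ± 12.7 against 151 ± 23.4 CPM, but the groups overlapped, since KT21 held 131.3 CPM and KT15 126. The log2 fold change was −0.35 (SE 0.17), and −0.33 (SE 0.16) without KT13 and KT21. With all 12 libraries 7 of 7 CD8 T cell markers were above 0 in this comparison (median 0.33). Macrophage markers were below 0 in 7 of 10 (median −0.59) and tumor epithelium markers in 5 of 5 (median −0.92). In GFP− cells Ikzf2 lay below the non-treated range in all 3 treated libraries, at 60.4 ± 8.97 against 75.9 ± 4.87 CPM, with a log2 fold change of −0.33 (SE 0.17). In the same comparison 7 of 9 natural killer cell markers (median −0.42) and 10 of 10 macrophage markers (median −0.97) were below 0. So were 5 of 5 tumor epithelium markers (median −0.97). The CD8 T cell markers were above 0 in 7 of 7 here as well (median 0.195). Tyrobp was at 8.27 ± 1.3 against 19.5 ± 1.7 CPM, with an adjusted p of 0.0709 in edgeR and 0.000754 without KT13 and KT21, and the part of such cells in the Ikzf2 values was not tested.

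The order of the Ikzf2 means was thus GFP+ non-treated, GFP+ anti-PD-L1, GFP− non-treated and GFP− anti-PD-L1. The GFP+ groups overlapped each other. The GFP− groups did not overlap each other. The GFP difference of Ikzf2 itself was of like size in both treatments, with a change on the log2 scale of −0.023 (SE 0.24), and of 0.001 (SE 0.20) without KT13 and KT21, given without a test because the non-treated part of it chose the family.

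Ikzf4 was higher after anti-PD-L1 in GFP+ cells in all 3 libraries, with 44.3 ± 2.7 against 32.6 ± 7.67 CPM, although the highest non-treated library, KT15 at 41.5 CPM, was just below the lowest treated library, KT21 at 41.6 CPM. The log2 fold change was 0.44 (SE 0.19), with an unadjusted p of 0.0367 and an adjusted p of 0.709 in edgeR. With both KT13 and KT21 left out it was 0.38 (SE 0.19), with an unadjusted p of 0.0621. The CD8 T cell, macrophage and tumor epithelium shifts given above for GFP+ cells belong to the same comparison. Their part in the Ikzf4 values was not tested. In GFP− cells the groups overlapped, at 63.9 ± 11.8 against 57.4 ± 5.71 CPM.

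Ikzf3 was at 126.5, 126.6 and 122.1 CPM in the treated GFP− libraries and at 112.6, 114.8 and 105.9 CPM in the non-treated ones. These groups did not overlap, yet the log2 fold change was 0.17 (SE 0.17) and the adjusted p was 1 in edgeR. In GFP+ cells its log2 fold change with anti-PD-L1 was 0.34 (SE 0.17), with an adjusted p of 0.757, and 0.31 (SE 0.14) with 0.553 without KT13 and KT21. Ikzf1 differed by 0.16 (SE 0.14) in GFP+ and 0.04 (SE 0.14) in GFP− cells, and Ikzf5 by −0.32 (SE 0.20) and 0.10 (SE 0.20). In GFP+ cells without KT13 and KT21 these were 0.09 (SE 0.12) for Ikzf1 and −0.31 (SE 0.22) for Ikzf5.

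When treated and non-treated GFP+ cells were compared, edgeR called 0 of the 4 members other than Ikzf2 with all 12 libraries, where 0.0141% of genes were called, and 1 of them, Ikzf4, had an unadjusted p under 0.05, beside 955 of 14173 genes. Without KT13 and KT21 the count was 0 of 4, where 0.563% were called, and Ikzf3 (0.0387) had an unadjusted p under 0.05 in place of Ikzf4, beside 1260 of 14747 genes. In GFP− cells it was 0 of 4 with all 12 libraries, where 0% of genes were called and 487 genes had an unadjusted p under 0.05, and 0 of 4 without KT13 and KT21, where 0.373% were called and 1064 genes had an unadjusted p under 0.05. DESeq2 called 0 of these 4 members in both treatment comparisons, beside 89 of 14173 genes in GFP+ and 33 in GFP− cells.

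Because Ikzf2 and Ikzf4 went in opposite directions, their counts were also set against each other within each library, a ratio that does not depend on library scaling. There were 1.28 to 1.37 Ikzf2 counts per Ikzf4 count in the non-treated GFP− libraries and 3.04 to 6.23 in the non-treated GFP+ libraries. After anti-PD-L1 the ratio was 0.857 to 1.06 in GFP− and 2.4 to 3.16 in GFP+ libraries. The separation of this ratio follows from that of the 2 genes already shown and carries no test.

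As a share of all counts of the 5 genes, Ikzf2 made 16.2% to 16.8% in non-treated GFP− and 26.8% to 31.9% in non-treated GFP+ libraries, and 11.1% to 13.6% and 20.8% to 24.8% after anti-PD-L1. Ikzf4 made 11.8% to 13.2% and 5.12% to 8.81% in non-treated GFP− and GFP+ libraries, and 11.9% to 15.5% and 7.12% to 9.97% after anti-PD-L1. The summed family level overlapped between fractions, at 450 to 486 and 470 to 540 CPM in non-treated and 450 to 494 and 471 to 583 CPM in treated GFP− and GFP+ libraries.

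**Figure D3:**
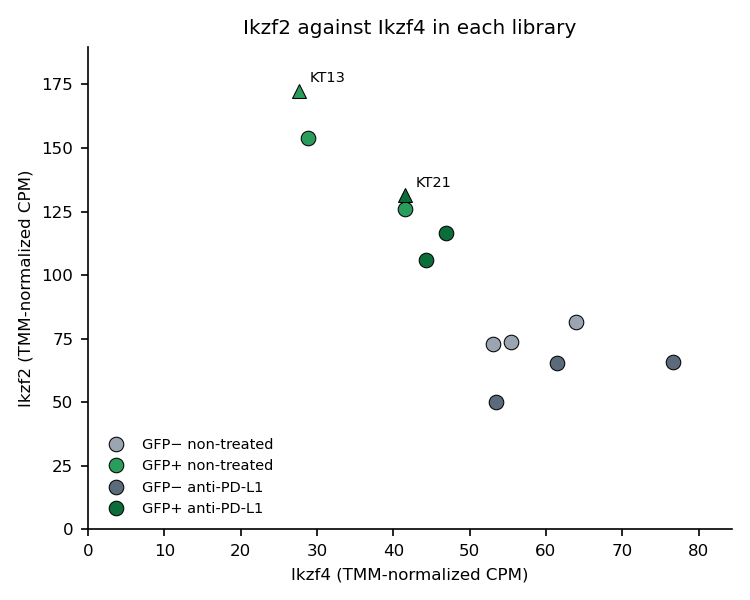
Ikzf2 against Ikzf4 in each of the 12 libraries, both axes in TMM-normalized CPM (triangles are KT13 and KT21). GFP+ libraries lie at the upper left, with Ikzf2 at 106.1 CPM or more, and GFP− libraries at the lower right, with Ikzf2 at 81.6 CPM or less.

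Over the 12 libraries the Pearson correlation of log2(CPM + 0.5) with Ikzf2 was −0.857 for Ikzf4 and −0.798 without KT13 and KT21. It was −0.0267 for Ikzf1, −0.216 for Ikzf3 and −0.101 for Ikzf5, and 0.789 for Adora2a. Leaving out KT13 and KT21 gave −0.499 for Ikzf1, −0.698 for Ikzf3, −0.141 for Ikzf5 and 0.769 for Adora2a, so the values of Ikzf1 and Ikzf3 moved most with these 2 libraries. The libraries share the sort and treatment groups, so these values describe the same group pattern and carry no p.

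Among 7800 genes with a mean of at least 10 CPM, the 5 most like Ikzf2 were Klra3 (0.981), Cxxc5 (0.953), Klhdc2 (0.951), Klra7 (0.943) and Klra1 (0.935), given as Pearson correlations over 12 libraries. Klra1, Klra3 and Klra7 encode Ly49 receptors for MHC class I, Cxxc5 a CXXC zinc finger protein and Klhdc2 a substrate receptor of a cullin ubiquitin ligase. All 5 remained among the first 50 genes without KT13 and KT21, but the first 5 then changed. Klra6, another Ly49 gene, moved from rank 14 to rank 1 (0.986) and Cd7, a T and natural killer cell surface gene, from 7 to 4 (0.969), while Cxxc5 moved to rank 6 and Klra1 to rank 12. The least like were B4galnt4 (−0.939), Ifitm1 (−0.931) and Cybc1 (−0.922). The Ly49 genes are close paralogs, so the split of reads between them is uncertain.

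The list of regulatory CD8 T cell markers, which holds the Ly49 genes, had 10 of 10 genes tested. After anti-PD-L1, 1 of the 10 was called higher in GFP+ cells with all 12 libraries, where 0.0282% of all genes were called. This was Klra7, with a log2 fold change of 1.45 (SE 0.21) and an adjusted p of 0.0298 in edgeR. Its mean was 87 ± 11.1 CPM in GFP+ and 31.8 ± 7.66 CPM in GFP− cells. Without KT13 and KT21, 4 were called higher, Klra6, Klra7, Klra1 and Klra3, with log2 fold changes of 2.05, 1.55, 1.35 and 1.31. Of all genes, 0.17% were called there. In 7 of the 12 fits that left out 1 library, those without KT15, KT17, KT18, KT19, KT20, KT22 or KT24, 0 genes of the list were called. The median of the list was 0.59, against 0 over all genes tested. Icos, Cd44 and Klra5 of the same list had values below 0, at −0.04, −0.25 and −0.48. Tox and Tcf7, factors of exhausted and stem-like CD8+ T cells, correlated with Ikzf2 at 0.556 and −0.0614, the latter 0.78 without KT13 and KT21.

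**Figure D4:**
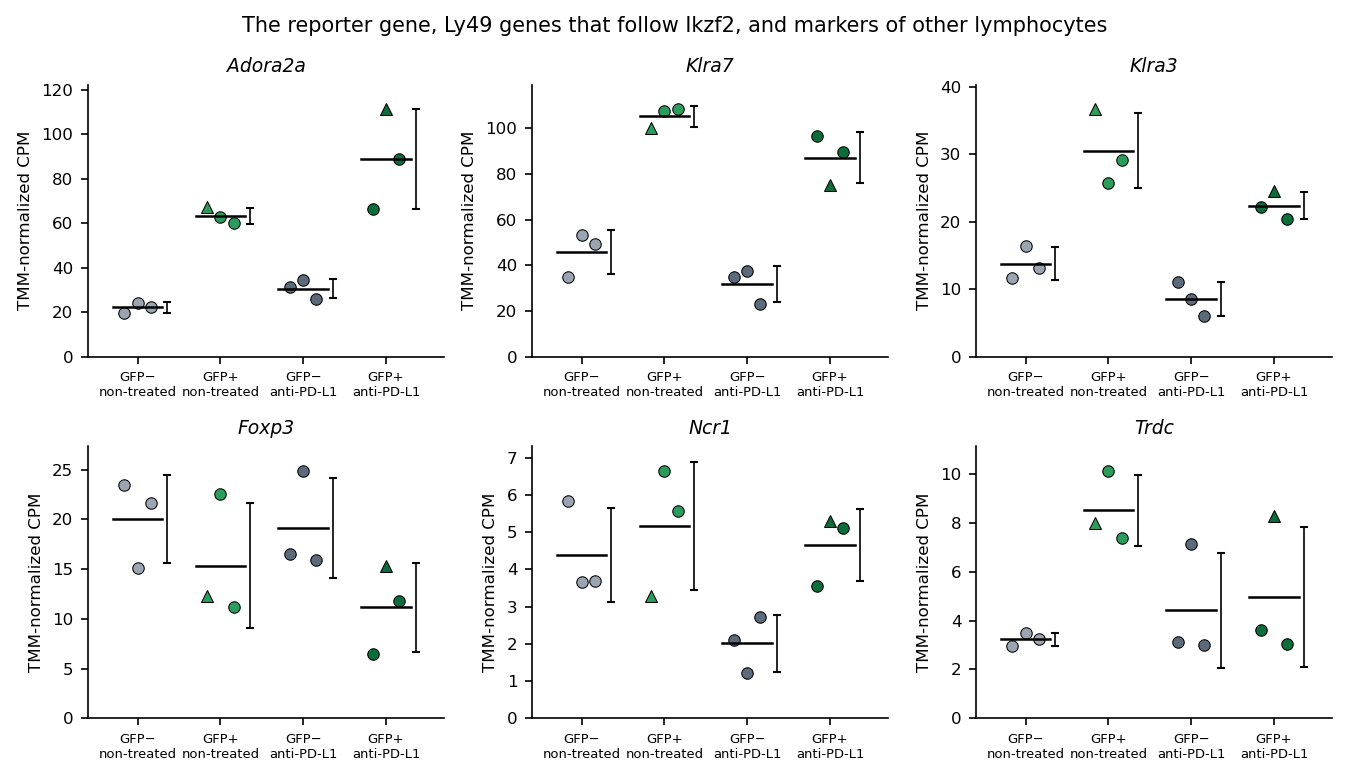
TMM-normalized CPM of Adora2a, the Ly49 genes Klra7 and Klra3, and the markers Foxp3, Ncr1 and Trdc in each library by condition (points are libraries, triangles are KT13 and KT21, lines are means of 3 and bars ± SD). Klra7 and Klra3 sit higher in GFP+ libraries of both treatments, as Ikzf2 does. Foxp3 lies at 15.9 CPM or more in the treated GFP− libraries and at 15.3 CPM or less in the treated GFP+ libraries. In non-treated tumors its groups overlap, at 15.1 to 23.5 CPM in GFP− and 11.2 to 22.5 CPM in GFP+ libraries.

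Since Helios and Eos are both known from CD4+ regulatory T cells, the markers of that cell type were read beside them. Foxp3, its defining factor, was at 20.1 ± 4.42 and 15.3 ± 6.27 CPM in non-treated GFP− and GFP+ cells and at 19.1 ± 5 and 11.2 ± 4.47 CPM after anti-PD-L1. Its mean was lower in GFP+ cells, as that of Ikzf4 was, and its fitted log2 difference in treated tumors was −0.78 (SE 0.34), with an adjusted p of 0.993 in edgeR. Cd4 was at or near 0 in every library. The 10 genes of the list summed to 628 to 795 CPM in non-treated GFP− and 558 to 665 CPM in non-treated GFP+ libraries, and to 742 to 869 and 616 to 832 CPM after anti-PD-L1. Of the 8 tested, 0 were called after anti-PD-L1 with all 12 libraries, where 0.0282% of all genes were called. Among the 8, 2 had a log2 fold change above 0 and 6 below 0, the direction of Ikzf4. The part of such cells in the Ikzf2 and Ikzf4 differences was not tested.

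Of the 9 natural killer cell genes, 8 had values above 0 between the treated fractions, the direction of Ikzf2, with a median log2 fold change of 1.21. Over all genes tested 50.1% were above 0 and 0.0282% were called. In non-treated tumors 7 of the 9 were above 0 with a median of 0.27, and without KT13 and KT21 8 of 9 with 0.48. Tyrobp, an adaptor of activating receptors, was at 20.8 ± 1.32 CPM in GFP+ and 8.27 ± 1.3 CPM in GFP− cells after anti-PD-L1, a log2 fold change of 1.33 (SE 0.19) with an adjusted p of 0.0298 in edgeR, and it was 1 of 9 genes of the list called. That count was 0 in 9 of the 12 fits that left out 1 library, all but those without KT13, KT16 or KT21. Without both KT13 and KT21, 9 of 9 were above 0 with a median of 1.103, and 3 were called higher, Tyrobp, Klrb1c and Fcer1g. Over all genes 50.7% were then above 0 and 0.17% were called. The 9 genes summed to 1550 to 1600 CPM in treated GFP+ and 1340 to 1500 CPM in treated GFP− libraries, and to 1270 to 1530 and 1160 to 1300 CPM in non-treated ones. Most of that sum was Il2rb, an interleukin 2 receptor chain that CD8+ T cells also express, with means of 1220 and 1120 CPM in treated GFP+ and GFP− cells, so the sum is no measure of natural killer cells. The defining gene Ncr1 was at 3.54 to 5.31 CPM in treated GFP+ and 1.21 to 2.72 CPM in treated GFP− libraries, which did not overlap, and at 3.29 to 6.65 and 3.65 to 5.84 CPM in non-treated ones, which did. The part of such cells in the Ikzf2 difference was not tested.

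The gamma-delta T cell gene Trdc was at 3.23 ± 0.276 and 8.5 ± 1.44 CPM in non-treated GFP− and GFP+ cells and at 4.42 ± 2.35 and 4.97 ± 2.87 CPM after anti-PD-L1, and the fractions overlapped after anti-PD-L1 and not in non-treated tumors. The summed level of the 6 genes of its list overlapped between fractions in both, at 216 to 314 and 171 to 321 CPM in non-treated and 260 to 377 and 166 to 305 CPM in treated GFP− and GFP+ libraries, and 2 of the 4 fitted had log2 differences above 0 in each treatment (4 of 4 in non-treated tumors without KT13 and KT21). The macrophage gene Csf1r was at 9.92, 16.5, 5.07 and 7.07 CPM in the mean in the non-treated GFP−, non-treated GFP+, treated GFP− and treated GFP+ cells. After anti-PD-L1, 10 of 10 macrophage genes had values above 0 for GFP+ against GFP−, with 0 called. Over all genes tested there, 50.1% were above 0 and 0.0282% were called. In non-treated tumors 6 of the 10 were above 0 and 4 below, with a median of 0.23. The 10 summed to 129 to 193 and 181 to 236 CPM in non-treated and 69.4 to 109 and 77.2 to 147 CPM in treated GFP− and GFP+ libraries. The marker lists of CD4+ helper, CD8+ and gamma-delta T cells also had 0 genes called between the treated fractions with all 12 libraries. The B cell, dendritic cell and tumor epithelium lists had 0 called there too, beside the same 0.0282% of all genes. Both B cell genes tested, 2 of 2, were above 0 (median 1.14), the direction of Ikzf2. In non-treated tumors the 4 helper T cell genes summed to 182 to 199 CPM in GFP− and 107 to 133 CPM in GFP+ libraries. There 3 of the 3 fitted were below 0, the direction of Ikzf4. After anti-PD-L1 these sums overlapped, at 182 to 251 and 190 to 235 CPM. The part of these cell types in the results for Ikzf2 and Ikzf4 was not tested.

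The known partner proteins of the family were read next. Of the 13 NuRD genes, 0 were called in any of the 3 tested comparisons in edgeR, with all 12 libraries or without KT13 and KT21. At most 0.0282% of all genes were called with all 12 libraries and at most 0.563% without KT13 and KT21. A count of 0 of 13 is near these shares. Their median log2 fold change between GFP+ and GFP− cells after anti-PD-L1 was 0.10, against 0 over all genes. The largest differences there were Mbd2, a methyl-CpG binding subunit, at −0.52 (SE 0.29), and Mbd3 at 0.33 (SE 0.31), where KT21 stood apart from the other treated GFP+ libraries in both genes. With KT13 and KT21 left out they were −0.19 (SE 0.14) and 0.018 (SE 0.20), and the median of the list was 0.018. The sum of the 13 genes lay between 1320 and 1500 CPM in every library.

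The 10 other corepressor and SWI/SNF genes and the 5 genes of the cereblon ubiquitin ligase, through which thalidomide-like drugs degrade Ikaros and Aiolos, also had 0 called in all 3 comparisons. The shares of all genes called there were those given for the NuRD genes. Their medians between GFP+ and GFP− cells of treated tumors were 0.04 and 0.05. The largest differences of the first list there were Rb1, the retinoblastoma protein gene, at −0.39 (SE 0.23), and Smarcc1, a SWI/SNF subunit, at 0.30 (SE 0.22). They were −0.29 (SE 0.24) and 0.058 (SE 0.14) without KT13 and KT21. Crbn, the drug receptor of that ligase, had a log2 fold change of −0.23 (SE 0.24) between the fractions and of 0.49 (SE 0.24) with anti-PD-L1 in GFP+ cells, with adjusted p of 0.993 and 0.759 in edgeR. The same values without KT13 and KT21 were 0.01 (SE 0.18) and 0.62 (SE 0.20), with adjusted p of 1 and 0.284.

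Of 21 genes described as targets of Ikaros family factors in lymphocytes, 16 were tested and 0 were called in any tested comparison with all 12 libraries. At most 0.0282% of all genes were called in these comparisons. The median difference between GFP+ and GFP− cells after anti-PD-L1 was −0.03. Il7r, the interleukin 7 receptor chain of naive and memory T cells, was at 64.3 ± 4.93 CPM in GFP+ and 99.3 ± 5.79 CPM in GFP− cells after anti-PD-L1, and at 48.9 ± 1.37 and 73.1 ± 2.5 CPM in non-treated tumors. Il7r thus differed by −0.63 on the log2 scale (SE 0.13) in treated tumors, with an adjusted p of 0.209 in edgeR. Without KT13 and KT21 the values were −0.69 (SE 0.13) and 0.0178. It was the 1 gene of the list called there, where 0.17% of all genes were called. Hes1, a Notch target, was at 1.42 (SE 0.55) with an adjusted p of 0.993 in edgeR in the same comparison with all 12 libraries. Without KT13 and KT21 it was 1.83, with an adjusted p of 0.0876. KT19 held 13.33 CPM of Hes1, against 2.275 in KT21, 4.295 in KT23 and 1.43 to 3.69 in the treated GFP− libraries. Vpreb1, a pre-B cell receptor gene, had 6 to 24 counts in treated GFP+ and 0 to 7 in treated GFP− libraries. It did not pass the count filter without KT13 and KT21, so its log2 difference of 2.14 (SE 1.57) is given without a test.

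With anti-PD-L1 in GFP+ cells, 3 target genes were called higher without KT13 and KT21, namely Cd8a (0.55, SE 0.11), Ifng (0.70, SE 0.13) and Prdm1 (1.16, SE 0.26), given as log2 fold changes, with adjusted p of 0.0103, 0.00883 and 0.0437 in edgeR, where 0.563% of all genes were called. In that comparison 7 of 7 CD8 T cell markers were above 0, and the 1 called higher was the same Cd8a. Of the macrophage markers 8 of 10 (median −0.83, 1 called lower) and of the tumor epithelium markers 5 of 5 (median −0.87) were below 0. The part of these marker shifts in the changes of the 3 target genes was not tested. In GFP− cells Hes1 was called lower in the same libraries, at −1.78 (SE 0.39) with an adjusted p of 0.0408 in edgeR, where 0.373% of all genes were called. There 10 of 10 macrophage markers (median −0.97, 2 called lower) and 5 of 5 tumor epithelium markers (median −0.965) were below 0. Of the natural killer cell markers 7 of 9 were below 0, with 1 called lower. The CD8 T cell markers were above 0 in 7 of 7 (median 0.196). The part of these marker shifts in the Hes1 value was not tested.

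Of the 15 other factors of CD8 T cell state, 0 were called with all 12 libraries in any tested comparison. At most 0.0282% of all genes were called in these comparisons. Without KT13 and KT21, Id2 and Prdm1 were called higher and Klf2 lower with anti-PD-L1 in GFP+ cells, where 0.563% of all genes were called. Their log2 fold changes were 0.94, 1.16 and −0.89, with adjusted p of 0.0182, 0.0437 and 0.0441 in edgeR. Between GFP+ and GFP− cells after anti-PD-L1 0 of the 15 were called in either set of libraries, and the median was 0.17 with all 12. Of all genes, 0.0282% with all 12 libraries and 0.17% without KT13 and KT21 were called there. The largest differences there were Irf4 at −0.49 (SE 0.16) and Id2 at −0.46 (SE 0.24), with adjusted p of 0.899 and 0.993 in edgeR.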

How the data were processed

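Sorted CD8+ T cells were measured by QuantSeq 3′ mRNA sequencing in 12 libraries. The deposited values are raw read counts per Ensembl gene. Per the study's methods and the submitters' processing notes, the authors trimmed 75-base single-end reads with cutadapt (1.7 in the notes), aligned them to mm10 with HISAT2 and counted them with featureCounts (Subread 1.6.4 in the notes). Strand and multi-mapping settings are not given in the sources used here, and reads were not collapsed by molecule, so counting error is a lower limit.

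Of 52636 identifiers, 52403 matched a symbol in GENCODE vM21, which also gave coordinates and transcript sequences. Counts were tested with edgeR 4.0.16 (R 4.3.3) by the quasi-likelihood F test with TMM scaling, filterByExpr, 1 coefficient per condition over all 12 libraries and Benjamini-Hochberg adjustment at 0.05, after testing on simulated data. Correlations used log2(CPM + 0.5). Depth was 11292699 to 19023900 counts. Alternatives were DESeq2 1.42.0, upper-quartile scaling, other count filters, only the groups compared, and libraries left out. KT13 and KT21 were left out together because their profiles stood apart. The study's legends list fewer GFP+ than GFP− samples for Adora2a and for its gene set analysis. They do not name the libraries used. No pair of libraries agreed within sampling noise.

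The members and gene lists were chosen with earlier results of these data known. Named genes were the 5 members, list genes called in a tested comparison (at most 4 by smallest p) or otherwise the 2 with the largest difference, defining cell type markers, Adora2a, and the 5 most and 3 least like Ikzf2. A withheld marker is not reported here.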

Additional observations from a re-analysis of the deposited data

How the results depend on the processing

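For Ikzf2 between GFP+ and GFP− cells after anti-PD-L1, the log2 fold change passed an adjusted p of 0.05 under 3 of 18 alternatives. It was 0.97 with genes of at least 1 count (adjusted p = 0.00213), 0.88 without KT13 and KT21 (0.00427) and 0.98 in DESeq2 (0.00016), and in each the number of members called was 1 instead of 0. Over all 18 alternatives the value lay between 0.86 and 1.06, with adjusted p between 0.00016 and 0.737. The number of all genes called in this comparison was 4, against 49, 25 and 38 under those 3 settings and 0 with only the groups compared. In anti-PD-L1 against non-treated, those settings called 123, 83 and 89 genes in GFP+ cells against 2, and 60, 55 and 33 in GFP− cells against 0, where the fit of only the groups compared called 51.

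Differences near 0 changed sign. Ikzf1 between fractions after anti-PD-L1 was −0.029 without KT13 and KT21 and ranged from −0.029 (without KT21) to 0.14 when 1 library was left out. Ikzf3 was −0.094 without KT13 and KT21 and ranged from −0.093 (without KT21) to 0.19. Ikzf5 with anti-PD-L1 in GFP− cells ranged from −0.045 (without KT20) to 0.23. None of these was called, and the cause was not tested. No paired fit was made, because the labels tie no GFP+ library to a GFP− library, although both may come from the same mice. The library codes alternate between GFP+ and GFP−, but adjacent codes are not stated to mark a shared pool of mice.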
